A study of Mus musculus with 80 samples.

Results

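The 2 gelatinases were compared for additive and non-additive effects in the tibial growth plate. The data were the 27 growth plate libraries of a series of 80 bulk RNA-seq libraries, the other 28 and 25 coming from calvaria and from cortical bone. They formed a 2 by 2 design of Mmp2 present or absent and Mmp9 present or absent, with 7 WT (C57BL/6J), 6 MMP2-/-, 7 MMP9-/- and 7 double knockout (dKO, MMP2-/- MMP9-/-) libraries. Each library came from the tibiae of a different female mouse of the C57BL/6J strain at postnatal day 21. The alleles are germline, so the genes were missing from every tissue throughout life. WT and MMP9-/- mice were bought from a supplier, MMP2-/- mice came from another laboratory, and dKO mice were bred from crosses of both single mutants. Source and breeding thus differed between genotypes, and their effect cannot be told apart from that of the missing genes. The question was whether the dKO differed from WT by the sum of the differences of both single knockouts, which is the additive expectation, or by more or less than this sum. It was asked with the interaction, (dKO minus MMP9-/-) minus (MMP2-/- minus WT), on the log2 scale, where 0 means additive and 1 means that the dKO level lay 2-fold above the additive expectation. Additive on the log2 scale is multiplicative in the level itself. A positive value is a dKO level above the sum and a negative value a level below it, whichever way the single knockouts moved.

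MMP2 and MMP9 are secreted zinc proteases that cut denatured collagen (gelatin) and several components of basement membranes. In the growth plate, resting chondrocytes give rise to columns of proliferating cells, which then enlarge as hypertrophic chondrocytes and deposit type X collagen. At the border with the bone, vessels and osteoclasts invade the hypertrophic cartilage and osteoblasts lay down bone on its remnants. MMP9 is made mainly by osteoclasts and other cells of this front and MMP2 mainly by stromal and osteoblastic cells, and loss of MMP9 in mice is known for a delayed removal of hypertrophic cartilage. The substrates of both enzymes overlap in part.

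Library totals ranged from 334395 to 1899252 counts, with 11582 to 14315 genes detected per library. The tissue label was checked with the summed level of 20 cartilage matrix genes in CPM, the usual unit of counts relative to the scaled library total. This sum was 6534 to 83791 CPM in the growth plates, 1299 to 4631 CPM in calvaria and 1950 to 15596 CPM in cortical bone. In the 5 growth plate libraries WT replicates 2, 3 and 7, MMP2-/- replicate 5 and MMP9-/- replicate 7 it was 6534 to 12032 CPM, which is below the highest cortical bone library, while the other 22 were at 19823 CPM or more. No dKO library was among these 5, and values without them are given beside most list medians and some single genes. The libraries also held other cells. The summed level of 27 erythroid genes was 58382 to 150840 CPM in WT, 14651 to 97897 CPM in MMP2-/-, 12019 to 81909 CPM in MMP9-/- and 12168 to 73019 CPM in dKO. That of 21 neutrophil genes was 4206 to 11434 CPM in WT and 926 to 4459 CPM in dKO, and that of 38 skeletal muscle genes 2544 to 78747 CPM over all genotypes. In such bulk samples fewer cells of a type and less RNA per cell cannot be told apart.

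Transcripts of both targeted genes were followed in every library as a check of the genotypes. Lowest, median and highest values, given in this order throughout, were for Mmp2 (chromosome 8, 92827291 to 92853420) 279, 396 and 557 CPM in WT, 4.07, 22.2 and 37.4 CPM in MMP2-/-, 334, 470.4 and 592 CPM in MMP9-/- and 16.6, 34.6 and 50.7 CPM in dKO. Libraries of both genotypes without Mmp2 lay below all others, with no overlap. For Mmp9 (chromosome 2, 164940780 to 164955850) the values were 1544, 2283 and 3777 CPM in WT, 1731, 2514 and 3950.1 CPM in MMP2-/-, 194, 309 and 979.6 CPM in MMP9-/- and 274, 309 and 605 CPM in dKO. All MMP9-/- and dKO libraries lay below all WT and MMP2-/- libraries. Residual counts of both transcripts therefore remained in their knockouts, and whether the counted 3' ends lie in the deleted part of either gene was not known. The range of each gene in the knockout of the other overlapped that of WT. The interaction of Mmp2 was 0.45 ± 0.40 (SE, 95% interval -0.36 to 1.26), which rests on 4.07 to 50.7 CPM in the 13 libraries without the gene. For Mmp9 it was -0.19 ± 0.39 (SE, 95% interval -0.99 to 0.62). Both had an adjusted p of 0.953 or above by the quasi-likelihood test of edgeR with Benjamini-Hochberg adjustment.

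**Figure D1:**
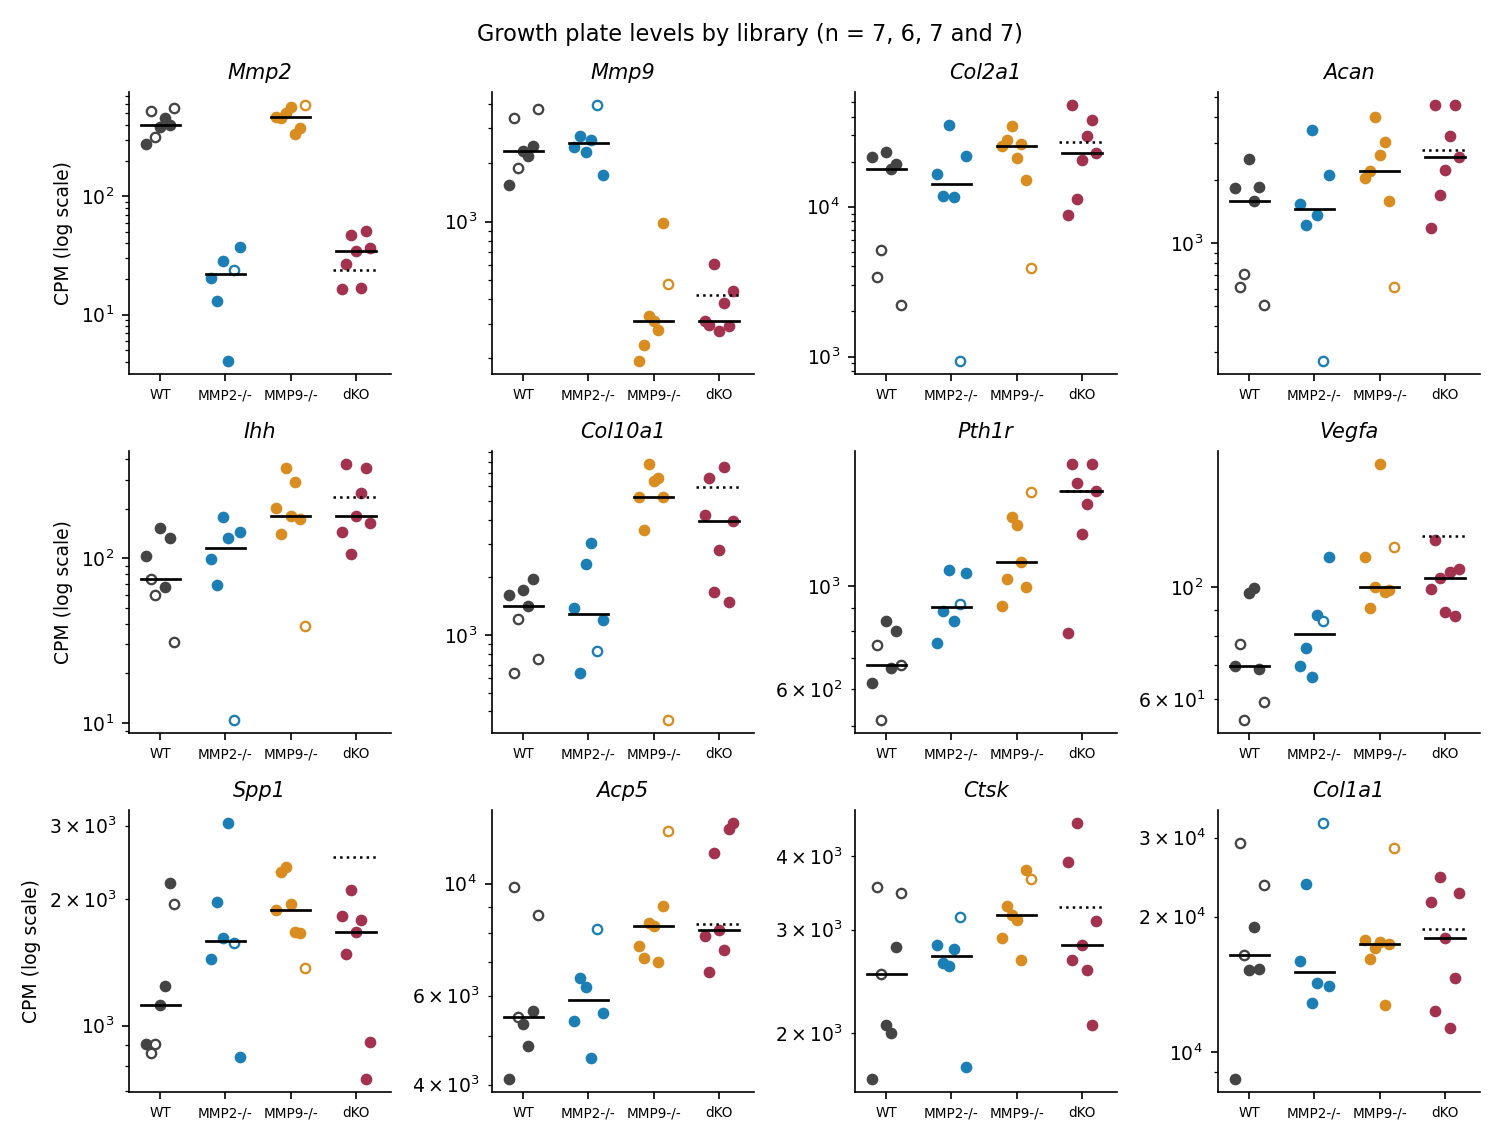
Levels of the 2 gelatinases and of 10 growth plate genes in CPM on a log axis, 1 point per library, for 7 WT, 6 MMP2-/-, 7 MMP9-/- and 7 dKO libraries. Black bars are medians, dotted bars the additive expectation for dKO, and open points the 5 libraries low in cartilage genes. Mmp2 and Mmp9 separate by genotype. For the other genes the dotted bar lies within the range of the dKO points, except for Vegfa and Spp1, where it lies above all of them.

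No gene departed from the additive expectation at the threshold. Of 14688 genes in the table, 10461 reached 15 counts in at least 1 growth plate library and were tested, and 0 (0%) had an adjusted p under 0.05 by edgeR. The smallest adjusted p was 0.130. DESeq2 and limma voom also called 0 genes. An unadjusted p under 0.05 was found for 519 genes (4.96%), 238 positive and 281 negative, with 524 by DESeq2 and 592 by limma voom. Without the 5 libraries low in cartilage genes 10438 genes were tested, 0 were called and 498 had an unadjusted p under 0.05. The median interaction over all genes tested was -0.048, with 4667 genes above 0 and 5794 below.

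A result of 0 genes does not show that the effects were additive, and the width of the intervals says how large a departure could have been missed. The median standard error of an interaction was 0.367 on the log2 scale and the 95% interval reached 0.748 to either side of the estimate in the median gene. The interval lay within 2-fold of additive for 4891 genes (46.8%) and within 1.5-fold for 1069 genes (10.2%). This depended on the level. Of the 697 genes over 200 CPM in WT, 553 (79.3%) were held within 2-fold, and of the 1553 genes under 10 CPM, 11 (0.708%). For genes over 200 CPM in WT a departure of more than 2-fold was therefore often outside the interval. The interval of nearly all genes under 10 CPM reached beyond 2-fold. Lists of growth plate cells did less well than their level alone would give. Only 1 of 20 cartilage matrix genes and 4 of 14 hypertrophic chondrocyte genes had an interval within 2-fold.

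**Figure D2:**
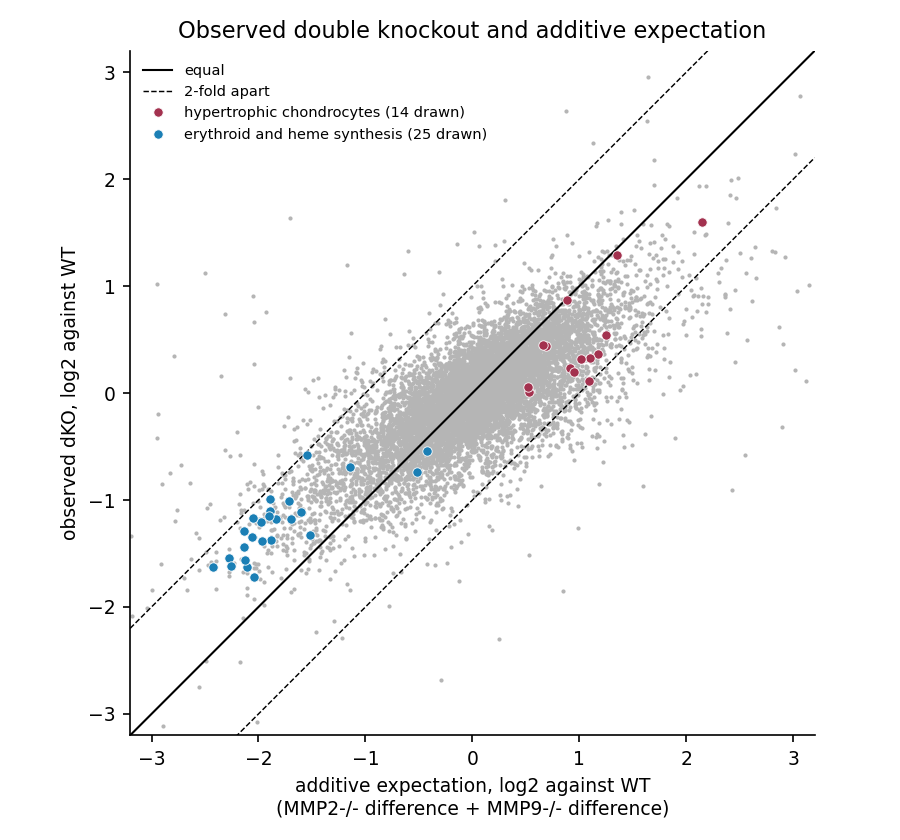
Observed log2 difference of dKO from WT (vertical) against the additive expectation, the sum of the differences of both single knockouts from WT (horizontal), for 10414 genes, with 47 genes outside the axes not drawn. The solid line marks equality and the dashed lines 2-fold distance from it. Red points are 14 hypertrophic chondrocyte genes and blue points 25 erythroid genes, 2 lists coloured after their values were seen. The same WT libraries enter both axes, so the slope of the cloud is not read. Hypertrophic genes lie below the solid line and most erythroid genes above it.

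Genes of the resting and proliferating zones were described first. Col2a1, the main collagen of cartilage, had 2200.3, 17775 and 23146 CPM in WT, 936, 14159 and 34889 CPM in MMP2-/-, 3884, 25626 and 34378 CPM in MMP9-/- and 8856, 22774 and 47903 CPM in dKO. The groups overlapped widely, and the lowest library of WT, MMP2-/- and MMP9-/- was in each case 1 of the 5 low in cartilage genes. Its interaction was -0.091 ± 0.76 (SE, 95% interval -1.64 to 1.46), and 0.10 without those 5 libraries. Aggrecan (Acan), the large proteoglycan of cartilage, stood in the same position, with an interaction of 0.043 ± 0.59 (SE, 95% interval -1.16 to 1.24). For both genes the interval reached beyond 2-fold in either direction, and the estimates of 0.58 and 0.60 with the cartilage level of each library in the fit and of -0.95 and -0.54 with the erythroid level had opposite signs. The 20 cartilage matrix genes as a list were lower, with 17 below 0, a median of -0.50 and 0 passing. That median was -0.37 without the 5 libraries, 0.066 with the cartilage level in the fit and -1.15 with the erythroid level, and the median standard error of its members was 0.77. The cartilage level is the mean of these same 20 genes, so a list median near 0 with it in the fit was fixed in advance. Sox9, the transcription factor that sets the chondrocyte fate, was low, with 0, 20.3 and 43.4 CPM in WT, 1.05, 22.3 and 64.4 CPM in MMP2-/-, 3.697, 30.1 and 54.3 CPM in MMP9-/- and 10.1, 13.02 and 68.3 CPM in dKO. The dKO median lay below the other medians although the groups overlapped, and the interaction was -1.11 ± 0.77 (SE, 95% interval -2.67 to 0.46). Gas1, a cell surface co-receptor for hedgehog proteins, had 18.2, 49.4 and 54.7 CPM in WT, 41.8, 68.4 and 82.4 CPM in MMP2-/-, 36.97, 52.3 and 83.6 CPM in MMP9-/- and 15.8, 41.3 and 63.9 CPM in dKO. All 7 dKO libraries were below the additive level of 81.6 CPM, with an interaction of -0.90 ± 0.35 (adjusted p = 0.921, edgeR). Wif1, a secreted inhibitor of WNT proteins, likewise was below its additive level in 7 of 7 dKO libraries, with an interaction of -0.53 ± 0.22. Neither passed the test. Both were named as the 2 members of smallest p of their list, like other list genes below. Counts of dKO libraries beside the additive level follow in part from that choice, and this level carries the error of 3 group means. The list of 10 chondrogenic and resting or proliferating chondrocyte genes had 9 below 0 and a median of -0.20. This median was -0.17 without the 5 libraries, -0.015 with the cartilage level in the fit and -0.60 with the erythroid level.

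Prehypertrophic and hypertrophic chondrocytes are marked by the signals that pace their differentiation. Indian hedgehog (Ihh), which prehypertrophic cells secrete to drive proliferation and the PTHrP loop, had 30.9, 75.00 and 154 CPM in WT, 10.5, 116 and 179 CPM in MMP2-/-, 38.8, 181 and 356 CPM in MMP9-/- and 107, 181 and 375 CPM in dKO. The MMP9-/- and dKO medians were alike, and the lowest MMP9-/- value came from replicate 7, a library low in cartilage genes. Its fitted log2 differences from WT were 0.21, 1.14 and 1.29 in MMP2-/-, MMP9-/- and dKO, and the interaction was -0.055 ± 0.57 (SE, 95% interval -1.22 to 1.11). It was 0.50 with the cartilage level and -0.58 with the erythroid level in the fit. Pth1r, the receptor of PTHrP and of parathyroid hormone, was measured more tightly, with 515, 675 and 842 CPM in WT, 754, 900.4 and 1087 CPM in MMP2-/-, 907, 1127 and 1595 CPM in MMP9-/- and 792, 1603 and 1838 CPM in dKO. The medians were ordered WT, MMP2-/-, MMP9-/- and dKO, and the dKO median lay at the additive level of 1603 CPM. With an interaction of -0.09 ± 0.23 (SE, 95% interval -0.56 to 0.38), an excess or deficit of 1.5-fold lay outside the interval of this gene. Type X collagen (Col10a1), the matrix product of hypertrophic cells, had 630.0, 1426 and 1964 CPM in WT, 635, 1288 and 3014 CPM in MMP2-/-, 360.5, 5291 and 7843 CPM in MMP9-/- and 1493, 3936 and 7563 CPM in dKO. Its log2 differences from WT were 0.23, 1.91 and 1.60, so that the level was high in both groups that lacked Mmp9. The interaction was -0.55 ± 0.61 (SE, 95% interval -1.79 to 0.69), an interval that included 0 and a 2-fold deficit. Without the 5 libraries low in cartilage genes it was -0.56.

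Vegfa, the growth factor that draws vessels into hypertrophic cartilage, had 54.6, 69.96 and 99.9 CPM in WT, 66.4, 80.8 and 115 CPM in MMP2-/-, 91.2, 100.3 and 176 CPM in MMP9-/- and 87.8, 105 and 124 CPM in dKO. All 7 dKO libraries were below the additive level of 127 CPM, but the interaction of -0.25 ± 0.23 (SE, 95% interval -0.72 to 0.22) included 0, and the interval lay within 2-fold. Osteopontin (Spp1), a phosphoprotein of late hypertrophic cells and osteoblasts, had 859, 1123 and 2195 CPM in WT, 843, 1594 and 3048 CPM in MMP2-/-, 1375, 1892 and 2394 CPM in MMP9-/- and 747, 1674 and 2110.1 CPM in dKO. Again 7 of 7 dKO libraries were below the additive level of 2532 CPM, and the interaction was -0.75 ± 0.36 (SE, 95% interval -1.48 to -0.023). The interval of this gene alone did not reach 0, while its adjusted p over all genes was 0.921 (edgeR). Cd200, a membrane glycoprotein of hypertrophic chondrocytes and stromal precursors, had 30.9, 48.96 and 53.7 CPM in WT, 36.9, 65.1 and 83.1 CPM in MMP2-/-, 46.3, 69.9 and 99.8 CPM in MMP9-/- and 35.9, 55.3 and 84.01 CPM in dKO. Its interaction was -0.77 ± 0.28, with 7 of 7 dKO libraries below the additive level of 98.7 CPM (adjusted p = 0.921, edgeR). In each of these 3 genes the single knockouts and the dKO all lay above WT in the median, and the dKO by less than the sum. Without the 5 libraries low in cartilage genes the interactions of Vegfa, Spp1 and Cd200 were -0.080, -0.79 and -0.60. With the erythroid level in the fit they were -0.13, -0.69 and -0.52.

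All 14 hypertrophic chondrocyte genes of the list (among them Col10a1, Ihh, Runx2, Runx3, Mef2c, Panx3 and Bmp6) had an interaction below 0, with a median of -0.61 against -0.048 over all genes tested and a range of -0.98 to -0.015. No member passed the test in either direction, and several members, such as Spp1, Ibsp and Runx2, are also osteoblast genes. The median differences from WT over the list were 0.35 in MMP2-/-, 0.59 in MMP9-/- and 0.35 in dKO, where 0.99 would have been additive. The list median was -0.72 to -0.37 when single libraries were left out, the upper end without MMP2-/- replicate 4, and -0.57 without the 5 libraries low in cartilage genes. The summed level of the list was 4661 to 7480 CPM in WT, 4584 to 11066 CPM in MMP2-/-, 6619 to 15128 CPM in MMP9-/- and 5735 to 13693 CPM in dKO. With the cartilage, erythroid or muscle level of each library in the fit the list median was -0.57, -0.49 and -0.49. Over all alternatives other than leaving out single libraries it ranged from -0.62 to -0.33.

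Bone forming cells at the front were described by their matrix genes, and the intervals of Col1a1 and Bglap lay within 2-fold of additive. Type I collagen (Col1a1), the main protein of bone matrix, had 8705, 16466 and 29162 CPM in WT, 12867, 15083 and 32357 CPM in MMP2-/-, 12723, 17403 and 28458 CPM in MMP9-/- and 11304, 17907 and 24527 CPM in dKO. The 4 groups overlapped throughout, and the interaction was -0.076 ± 0.34 (SE, 95% interval -0.77 to 0.62). Osteocalcin (Bglap), a late osteoblast product, gave 0.12 ± 0.28 (SE, 95% interval -0.45 to 0.70). Bone sialoprotein (Ibsp), which nucleates mineral, had 796, 1369 and 2323 CPM in WT, 1104, 1611 and 4842 CPM in MMP2-/-, 1547, 1906 and 2645 CPM in MMP9-/- and 581, 1849 and 3232 CPM in dKO. The dKO was below the additive level of 2998 CPM in 6 of 7 libraries, with an interaction of -0.70 ± 0.44 (SE, 95% interval -1.59 to 0.19). Dlx5, a homeobox factor of early osteoblasts and hypertrophic cells, gave -0.82 ± 0.32 with 7 of 7 dKO libraries below 46.95 CPM, its additive level. Over the 20 osteoblast and bone matrix genes 17 were below 0 and 0 passed the test, with a median of -0.30. That median was -0.043 with the erythroid level of each library in the fit, -0.44 with the cartilage level, -0.46 with the muscle level and -0.27 without the 5 libraries low in cartilage genes.

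Osteoclasts resorb the cartilage and bone at the front and produce MMP9. Tartrate-resistant acid phosphatase (Acp5) had 4105, 5431 and 9857 CPM in WT, 4517, 5892 and 8145 CPM in MMP2-/-, 7005, 8243 and 12693 CPM in MMP9-/- and 6675, 8095 and 13197 CPM in dKO. The MMP9-/- and dKO ranges lay above the WT median of 5431 CPM, and the dKO median was near the additive level of 8301 CPM. Its interaction was 0.22 ± 0.28 (SE, 95% interval -0.36 to 0.79). Cathepsin K (Ctsk), the main collagenase of osteoclasts, gave -0.084 ± 0.25 (SE, 95% interval -0.60 to 0.43). Oscar, a co-stimulatory receptor of osteoclasts, had an interaction of 0.61 ± 0.35 and Clcn7, the chloride transporter of their resorbing membrane, of 0.51 ± 0.30. In these 2 genes all 7 dKO libraries exceeded the additive level, but neither passed the test (adjusted p = 0.921 for both, edgeR). The 13 osteoclast genes tested had a median of 0.14, with 9 above 0, and 0 passed. This median was 0.0017 without the 5 libraries low in cartilage genes, 0.015 with the cartilage level in the fit, -0.032 with the muscle level and 0.35 with the erythroid level, so that its sign was not stable. RANKL (Tnfsf11), the ligand that osteoclasts need to form, was near the detection limit with 2.23, 5.204 and 17.1 CPM in WT, 3.16, 8.69 and 18.8 CPM in MMP2-/-, 6.08, 7.39 and 15.8 CPM in MMP9-/- and 0, 4.98 and 11.8 CPM in dKO. Its interaction of -1.46 ± 0.66 (SE, 95% interval -2.81 to -0.12) rests on few counts.

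Additivity depends on the scale. As a description, the same combination of group means on the linear CPM scale, with an error from the spread within groups, was 71.7 ± 181 CPM (SE) for Pth1r, -1224 ± 1351 CPM for Col10a1, -831 ± 433 CPM for Spp1 and 1280.1 ± 1597 CPM for Acp5. Of the 114 named genes 4 had opposite signs on the 2 scales, Pth1r, Mmp2 (-43.7 ± 53.4 CPM), Col2a1 (413 ± 8751 CPM) and Ihh (10.2 ± 62.9 CPM), each within its error of 0 on the linear scale.

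**Figure D3:**
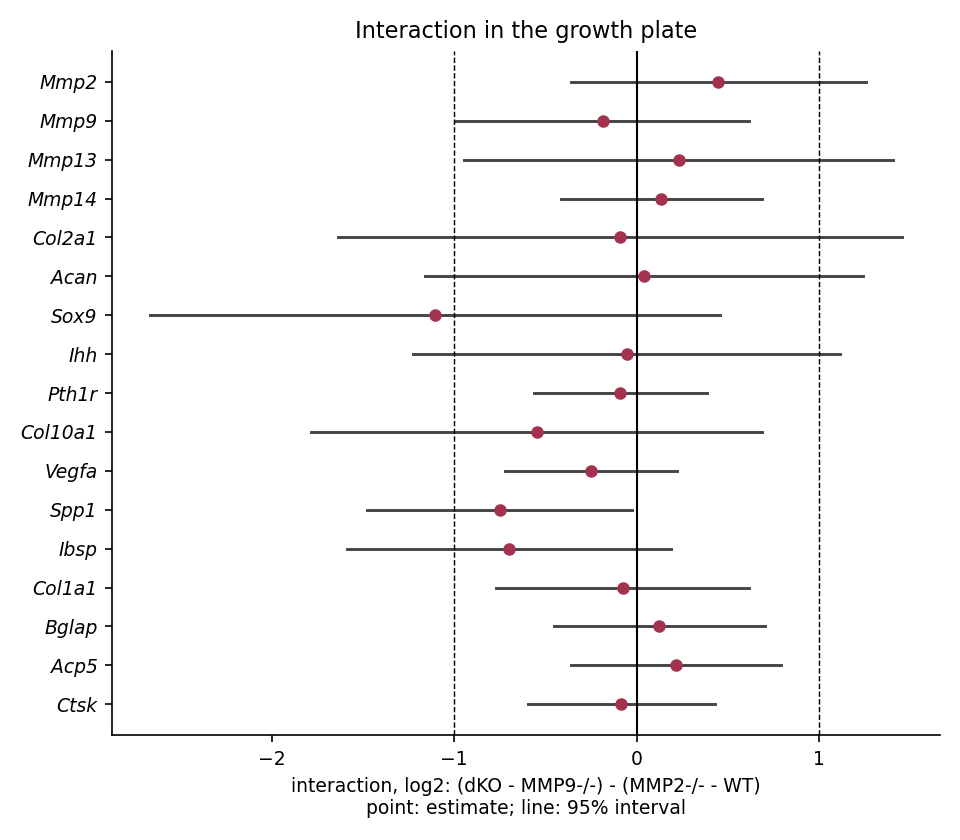
Interaction on the log2 scale (horizontal) for the 2 gelatinases and 15 growth plate genes, with the estimate as a point and the 95% interval as a line. The solid line marks an additive effect and the dashed lines 2-fold departures. The interval of Spp1 alone excludes 0, and those of Mmp9, Pth1r, Vegfa, Mmp14, Ctsk, Col1a1, Bglap and Acp5 lie between the dashed lines.

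Other proteases of the matrix and their inhibitors were examined next. Mmp14, the membrane-bound collagenase that activates pro-MMP2, had 488, 793 and 1257 CPM in WT, 621, 892 and 1309 CPM in MMP2-/-, 919, 1157 and 1673 CPM in MMP9-/- and 905, 1636 and 1943 CPM in dKO. The medians were ordered WT, MMP2-/-, MMP9-/- and dKO, and 5 of 7 dKO libraries exceeded the additive level of 1372 CPM. The interaction was 0.14 ± 0.27 (SE, 95% interval -0.41 to 0.68), within 2-fold of additive. Collagenase 3 (Mmp13), made by late hypertrophic cells and osteoblasts, had 12.03, 26.02 and 38.2 CPM in WT, 11.5, 21.97 and 100.2 CPM in MMP2-/-, 14.8, 26.9 and 69.9 CPM in MMP9-/- and 38.5, 58.7 and 101 CPM in dKO. The lowest dKO library was above the WT, MMP2-/- and MMP9-/- medians. Its interaction of 0.23 ± 0.58 (SE, 95% interval -0.94 to 1.41) was less certain, and was -0.22 without the 5 libraries low in cartilage genes. The 9 other matrix metalloproteinases tested, of 16 listed, had a median of -0.19 with 3 above 0, and 0 passed. Timp3, the inhibitor that binds to the matrix, had 46.4, 91.5 and 137 CPM in WT, 93.3, 109.6 and 173 CPM in MMP2-/-, 120.4, 134 and 142 CPM in MMP9-/- and 74.7, 116 and 146 CPM in dKO, and 7 of 7 dKO libraries were below the additive level of 182 CPM. Its interaction was -0.62 ± 0.25 (adjusted p = 0.921, edgeR) and moved to -0.38 without those 5 libraries. Timp2, which also takes part in the activation of pro-MMP2, gave -0.18 ± 0.19 (SE, 95% interval -0.56 to 0.21). All 5 inhibitors tested were below 0, with a median of -0.18 and 0 passing. The 10 ADAMTS proteases had a median of -0.17. Without the 5 libraries low in cartilage genes the medians of these 3 lists were -0.22, -0.19 and -0.16. With the erythroid level in the fit they were 0.17, -0.12 and 0.18, so that the first and the last changed sign.

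The remaining signalling lists were described in the same way, each beside the median of -0.048 over all genes tested and with 0 members passing in either direction. Of the 28 BMP and TGF-beta pathway genes 25 were below 0, with a median of -0.32. Smad1, a transducer of BMP receptors, gave -1.05 ± 0.49 in that list. The hedgehog list of 11 genes had a median of -0.33, with 10 below 0, and Hhip, a hedgehog-binding target gene, gave -1.54 ± 0.69 at a WT median of 6.43 CPM. The 15 genes of the insulin-like growth factor axis had -0.39, the 29 WNT genes -0.15 and the 10 FGF genes -0.12. Without the 5 libraries low in cartilage genes these 3 medians were -0.17, 0.045 and -0.029, so that the WNT median changed sign. The BMP and TGF-beta median was then -0.27 and the hedgehog median -0.18. With the erythroid level in the fit the BMP and TGF-beta median was -0.12 and the hedgehog median -0.44. The medians of the insulin-like growth factor axis, the WNT genes and the FGF genes were then -0.42, 0.054 and -0.021. The 20 immediate early genes, which respond within minutes to stimuli and to tissue handling, had a median of -0.42, with 17 below 0. This median was -0.33 without the 5 libraries low in cartilage genes and -0.23 with the erythroid level in the fit. Connective tissue growth factor (Ccn2), a matricellular target of TGF-beta and mechanical signals, had 95.3, 173 and 233 CPM in WT, 176, 231 and 447 CPM in MMP2-/-, 142, 379 and 482 CPM in MMP9-/- and 77.7, 254 and 445 CPM in dKO. All 7 dKO libraries were below the additive level of 595 CPM, and the interaction was -1.24 ± 0.42 (SE, 95% interval -2.10 to -0.38), with an adjusted p of 0.921 by edgeR. The related Ccn1 gave -0.91 ± 0.32. The 16 vessel genes had -0.18 and the 14 basement membrane genes, which include gelatinase substrates, -0.067. Without the 5 libraries these medians were -0.058 and 0.14, and with the erythroid level in the fit 0.019 and 0.045, so that neither list kept its direction. Lamb1, a laminin chain, showed 24.1, 39.2 and 51.5 CPM in WT, 31.6, 59.9 and 70.9 CPM in MMP2-/-, 53.5, 85.1 and 97.98 CPM in MMP9-/- and 46.7, 70.2 and 112 CPM in dKO and an interaction of -0.57 ± 0.30 (SE, 95% interval -1.19 to 0.052).

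The lists whose medians lay furthest from 0 to either side were those of muscle and of the red cell lineage. Of 36 skeletal muscle genes 32 were below 0, with a median of -0.89. The muscle sum was 2544 to 50593 CPM in WT, 11392 to 78747 CPM in MMP2-/-, 9256 to 35345 CPM in MMP9-/- and 7721 to 30541 CPM in dKO. The list median was 0.068 without the 5 libraries low in cartilage genes and 0.065 with the muscle level in the fit. The muscle level is the mean of this same list, so that the second value was near 0 by construction. Of 27 erythroid genes 24 were above 0, with a median of 0.66. They were lower than WT in all 3 knockout groups, with median differences of -0.93, -0.96 and -1.20 where -1.90 would have been additive. The erythroid median was 0.42 without the 5 libraries, 0.94 with the cartilage level in the fit and 0.034 with the erythroid level. The last value was likewise near 0 by construction, because the erythroid level is the mean of the erythroid list itself. Hba-a2, a globin chain with a near-identical copy that can share its reads, had 105, 5411 and 12103 CPM in WT, 5.703, 153 and 3075 CPM in MMP2-/-, 1.43, 77.6 and 121 CPM in MMP9-/- and 29.6, 57.2 and 161 CPM in dKO. Its interaction was 3.08 ± 1.27 (SE, 95% interval 0.50 to 5.67). Its fitted log2 differences from WT, -3.12, -6.17 and -6.20 in MMP2-/-, MMP9-/- and dKO, were far larger than the list medians. In the fit of all 80 libraries its interaction was 3.1 in growth plate, 5.0 in calvaria and 5.8 in cortical bone. The cell division list also had 29 of 31 genes above 0, with a median of 0.35, which was 0.17 without the 5 libraries and -0.078 with the erythroid level in the fit. Ribosomal proteins, with the smallest median standard error of the 42 lists (0.18), had a median of 0.0095 over 49 genes, 42 of them with an interval within 2-fold. C1qc, a complement chain made by macrophages, had 51.5, 72.6 and 85.7 CPM in WT, 63.5, 71.8 and 74.2 CPM in MMP2-/-, 52.8, 64.2 and 106 CPM in MMP9-/- and 24.9, 37.7 and 64.2 CPM in dKO, and 7 of 7 dKO libraries were below the additive level of 68.3 CPM. Both single knockout medians were within the WT range, and the interaction was -0.68 ± 0.26 (SE, 95% interval -1.22 to -0.15), again with an adjusted p of 0.921 (edgeR). C1qc was the member of smallest p among 16 macrophage and antigen presentation genes tested. Of these 11 were below 0 and 5 above, up to 0.65, with a median of -0.21. In all of these lists 0 genes passed the test. By construction the WT libraries enter both the expectation and the interaction, so that a high level in WT alone gives a positive interaction and a low level a negative one.

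Of the 42 list medians 8 had the opposite sign without the 5 libraries low in cartilage genes, 1 with the cartilage level in the fit, 12 with the erythroid level and 5 with the muscle level. The 1 with the cartilage level was the cartilage matrix list itself, and the 5 with the muscle level include the skeletal muscle list. Both were fitted with the mean of their own members, so these changes say nothing about stability.

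**Figure D4:**
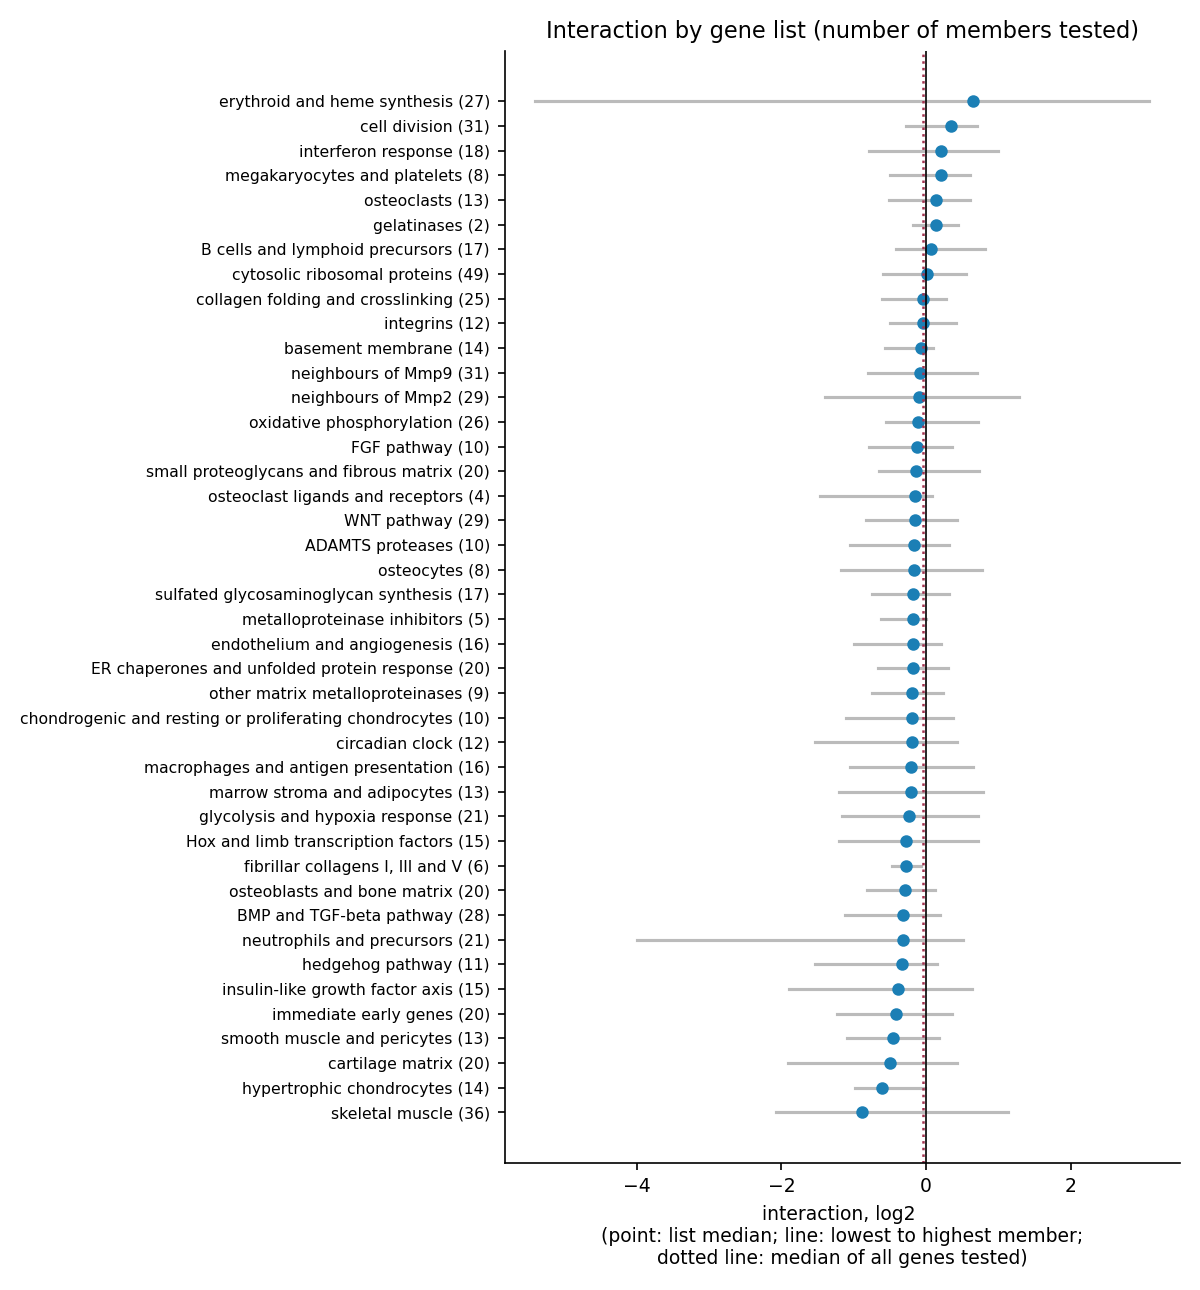
Interaction on the log2 scale for 42 gene lists, ordered by their median, with the number of members tested in brackets. Points are list medians, grey lines run from the lowest to the highest member, and the dotted line is the median of all genes tested (-0.048). Skeletal muscle and hypertrophic chondrocyte lists have the lowest medians and the erythroid list the highest, and no member of any list passed the test.

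The genes of smallest p were named without having passed. Among protein coding genes with counts in all groups Rab11fip5, which guides recycling endosomes, had 18.6, 19.3 and 27.8 CPM in WT, 31.1, 36.8 and 43.4 CPM in MMP2-/-, 25.4, 43.7 and 44.6 CPM in MMP9-/- and 16.9, 30.6 and 52.1 CPM in dKO. Both single knockouts were above WT, with overlap only through MMP9-/- replicate 1, and all 7 dKO libraries were below the additive level of 66.7 CPM. The interaction was -1.04 ± 0.26 (SE, 95% interval -1.56 to -0.52), with an adjusted p of 0.918 (edgeR). Hbp1, a repressor of cell cycle genes, had 57.2, 74.6 and 87.6 CPM in WT, 84.6, 95.1 and 112 CPM in MMP2-/-, 82.1, 92.2 and 128 CPM in MMP9-/- and 64.2, 72.1 and 106 CPM in dKO. The dKO range overlapped that of WT, while the medians of MMP2-/- and MMP9-/- were higher, and the interaction was -0.74 ± 0.20 (SE, 95% interval -1.14 to -0.34). Tns3, an adaptor at cell-matrix adhesions, gave -0.66 ± 0.19, the endosomal chloride transporter gene Clcn4 -0.72 ± 0.20, Igdcc4 -1.15 ± 0.34 and Elp3, a subunit of the elongator complex, -0.71 ± 0.21. In these 6 genes, named for their small p, 0 dKO libraries reached the additive level. Without the 5 libraries low in cartilage genes Igdcc4 moved to -0.71.

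Positive values of small p were found for Spc24, part of the kinetochore complex, which had 87.6, 107 and 136 CPM in WT, 40.3, 64.02 and 106 CPM in MMP2-/-, 36.97, 55.9 and 96.9 CPM in MMP9-/- and 67.1, 73.6 and 104 CPM in dKO. The 3 knockout groups were below WT in the median, and all 7 dKO libraries exceeded the additive level of 39.1 CPM. Its interaction was 0.96 ± 0.28 (SE, 95% interval 0.39 to 1.54). Tyw1, an enzyme of tRNA modification, gave 1.03 ± 0.30, Mfhas1 1.04 ± 0.31, Gse1 0.84 ± 0.25, Prkrip1 0.76 ± 0.23, the replication factor subunit Rfc2 0.65 ± 0.20 and Psme2b, a gene close in sequence to the proteasome activator Psme2, 1.85 ± 0.53. Adjusted p values of these genes were all 0.921 (edgeR). Spc24 moved to 0.71 and Gse1 to 0.58 with the erythroid level in the fit. Pseudogenes made up another part of this list, Rpl36-ps2, Gpx4-ps2, Gm6681, Rpl31-ps10 and Gm7859, and their counts are uncertain because reads can be shared with the parent genes.

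**Figure D5:**
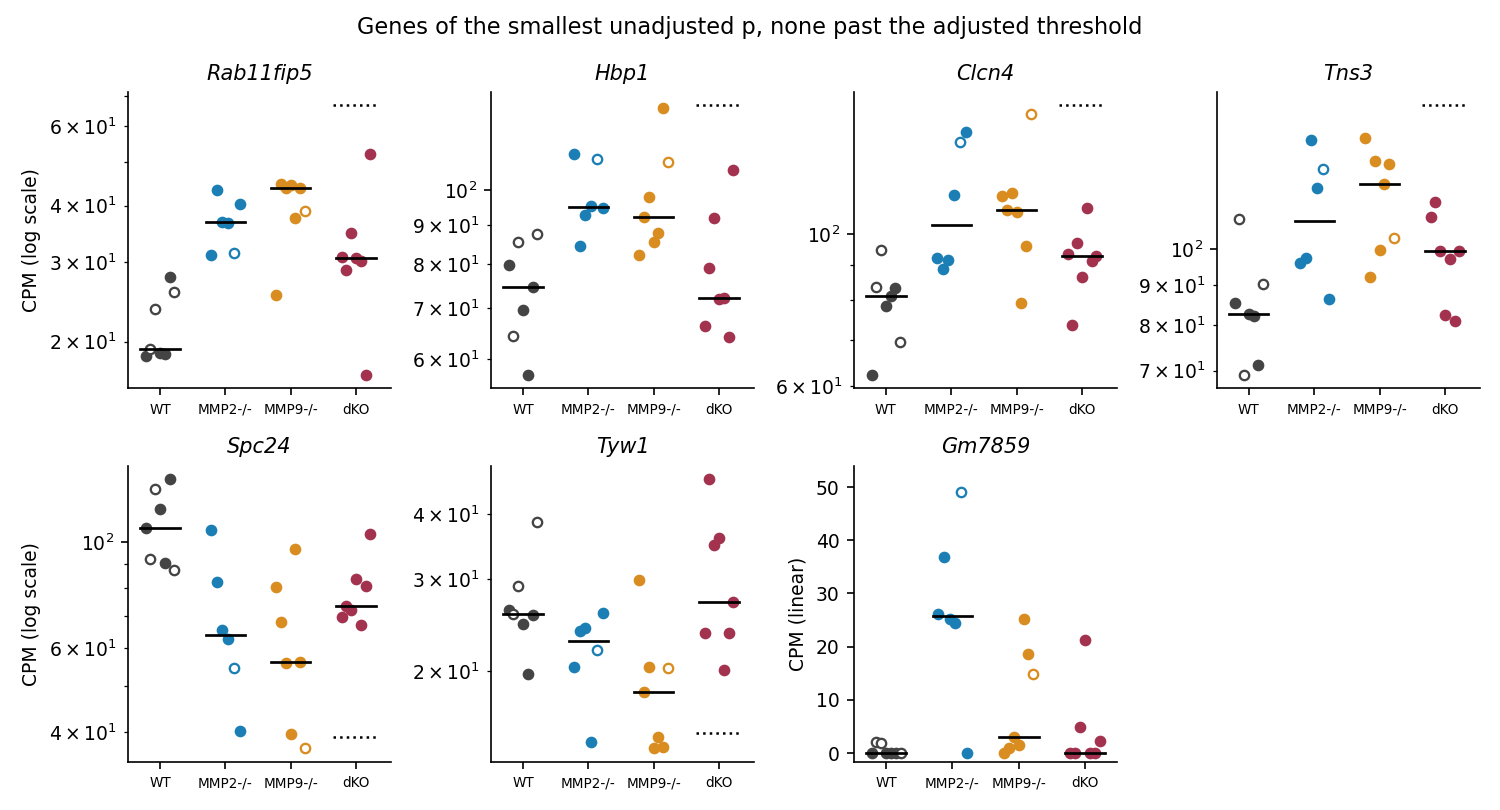
CPM per library of 7 genes with small unadjusted p, for 7 WT, 6 MMP2-/-, 7 MMP9-/- and 7 dKO libraries, on log axes except for Gm7859, which is on a linear axis. Black bars are medians, dotted bars the additive expectation (not drawn for the linear panel), and open points the 5 libraries low in cartilage genes. All dKO points lie below the dotted bar for Rab11fip5, Hbp1, Clcn4 and Tns3 and above it for Spc24 and Tyw1.

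Gm10436 and Gm7859, the 2 genes of smallest p, were near 0 in part of the libraries. Gm10436 (chromosome 12, 88175589 to 88182108) reached 105 CPM in WT replicate 5 and 336 and 269 CPM in dKO replicates 1 and 7, and at most 2.17 CPM in each of the other 24 libraries. Nearly all counts were in those 3 libraries, and the fitted interaction of 13.9 depends on the prior count of the fit. Its adjusted p was 0.130 (edgeR), and it was called when erythroid level was included (adjusted p = 0.0185) or when dKO replicate 4 was left out. Gm7859 (chromosome 15, 68715009 to 68715763), a pseudogene, was 0 to 2.14 CPM in WT and 24.4 to 49.1 CPM in 5 of 6 MMP2-/- libraries. The other MMP2-/- library, replicate 6, was at 0. In MMP9-/- it was 14.8 to 25.2 CPM in replicates 5, 6 and 7 and at most 3.02 CPM in the others, and in dKO it was 21.3 CPM in replicate 4 and at most 4.98 CPM in the others. High and near-0 libraries thus occurred within 3 of the 4 genotypes, and without dKO replicate 4 the gene was called (adjusted p = 0.00504, edgeR).

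The interaction was then set against that of the other tissues, by testing the difference of the interactions over all 80 libraries and 11307 genes. The growth plate differed from calvaria in 0 genes (584 at an unadjusted p under 0.05, smallest adjusted p 0.207, edgeR) and from cortical bone in 0 genes (347 and 1.00). Without MMP9-/- replicate 6 the difference from calvaria was called for 1 gene, Rpl36-ps2 (adjusted p = 0.0201, edgeR). The mouse was not part of that fit although 30 of 33 mice gave more than 1 tissue. A limma voom fit with the mouse as a random block also called 0 genes in either comparison, at an estimated correlation within mice of 0.013. In the edgeR fit of all 80 libraries the interaction was called for 1 gene in the growth plate, Gm10436, for 0 in calvaria (535 at an unadjusted p under 0.05) and for 0 in cortical bone (448). Rab11fip5 had an interaction of -1.03 in the growth plate, -0.00059 in calvaria and -0.28 in cortical bone, and Hbp1 one of -0.73, -0.091 and 0.11. These differences did not pass the test (adjusted p of 0.920 or above, edgeR). Both genes were named for their small p in the growth plate, so values nearer 0 elsewhere follow in part from that choice. For Mmp2 the interactions were 0.46, -0.34 and 0.25, and for Mmp9 -0.18, -0.66 and -0.13, in growth plate, calvaria and cortical bone.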

How the data were processed

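Growth plates were taken from tibiae, frozen and pulverized, and 30 ng of RNA per mouse entered a bulk MARS-seq protocol, which tags and counts the 3' ends of transcripts. Per the labels and the study's methods, the authors aligned single-end reads of 100 bases to GRCm38 with STAR 2.7.3a and counted them per gene with HTSeq on an Ensembl annotation. The deposited values used here are raw counts per gene, not normalized. Whether molecular barcodes were collapsed is not given in the sources used here. A deposited normalized table was not used. Counts of 3' tags do not depend on gene length, and no level was compared between genes.

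Counts were scaled by TMM and fitted with the quasi-likelihood model of edgeR 4.0.16 (limma 3.58.1, R 4.3.3), with 1 mean per genotype over the 27 growth plate libraries and without covariates. The interaction was tested for genes whose highest count over these libraries was 15 or more. Adjusted p-values are Benjamini-Hochberg values over all genes tested, the threshold was 0.05, and a call as a differentially expressed gene (DEG) also required a 1.5-fold interaction. Standard errors are the log2 value divided by the square root of F, and intervals cover 95%. Component differences from WT come from the same fit and were not tested. The fit was tested on simulated data. The p-values measure the spread between mice. The additive level in CPM is the product of the MMP2-/- and MMP9-/- mean CPM divided by the WT mean CPM, and not a fitted value. It rests on group means, also where a dKO median is set beside it. CPM use 27-library scaling for the levels and 80-library scaling for marker sums and values compared between tissues.

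Named genes were the 2 gelatinases, up to 10 genes per direction of smallest p (clone-named genes left out), the 2 members of smallest p of each list, and 15 growth plate genes. 1 gene that this rule names is not reported here. Gene lists come from textbook knowledge. The members, lists and tests were chosen with earlier results of these data known, and no list was tested as a set. Alternatives were RLE size factors, DESeq2 1.42.0, limma voom with sample weights, robust moderation, 2 other count filters, erythroid, neutrophil and muscle levels as covariates, haemoglobin genes left out, a replicate block, all 80 libraries together, and each library left out. Each level used as a covariate was the mean log2 CPM of its own list. For the difference between tissues limma voom was also run with the mouse as a random block. Leaving out the libraries low in cartilage genes, and the cartilage level as a covariate, were added after seeing the data. Gene coordinates are from the GENCODE annotation of GRCm38.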

Additional observations from a re-analysis of the deposited data

Results flagged for a closer look

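In 196 groups of 6 or 7 libraries (49 values in 4 genotypes), 28 (14.3%) held a library that stood apart by Dixon's test on log2 values with a pseudocount of 1, where chance flags about 1 in 20. MMP9-/- replicate 7, 1 of the 5 libraries low in cartilage genes, was lowest for the cartilage matrix sum (12032 CPM), Col2a1 (3884 CPM), Sox9 (3.70 CPM), Ihh (38.8 CPM) and Col10a1 (360.5 CPM), and highest for Col1a1 (28458 CPM) and Acp5 (12693 CPM). MMP2-/- replicate 5, another of these 5, was lowest for Col2a1 (936 CPM), Sox9 (1.05 CPM), Ihh (10.5 CPM) and the neutrophil sum (1417 CPM). The dKO replicate 3 was lowest for the neutrophil sum (926 CPM) and the B cell sum (504 CPM).

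Single values stood apart as well. The osteoblast sum of MMP9-/- replicate 5 was lowest (61763 CPM), as were Pth1r in dKO replicate 1 (792 CPM), Igdcc4 in dKO replicate 6 (6.76 CPM), Rab11fip5 in MMP9-/- replicate 1 (25.4 CPM) and Ctsk in MMP2-/- replicate 6 (1749 CPM). Vegfa was highest in MMP9-/- replicate 4 (176 CPM). Psme2b was highest in WT replicate 2 (109 CPM) and in MMP2-/- replicate 3 (33.7 CPM). Gm10436 was highest in WT replicate 5 (105 CPM), with 2.17 CPM in MMP2-/- replicate 2 and 0.754 CPM in MMP9-/- replicate 3 against 0 in the rest of their groups. Among the pseudogenes, Gm7859 and Rpl31-ps10 were at 0 in MMP2-/- replicate 6, Gm6681 was at 0 in MMP2-/- replicate 2, and Gm6681 was highest in MMP9-/- replicate 6 (35.9 CPM).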

How the results depend on the processing

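The count of genes with an interaction in the growth plate was 0 under every alternative run, with these exceptions. It was 1 with the erythroid level as a covariate and 1 in the fit of all 80 libraries (Gm10436 in both), and 0 to 2 when single libraries were left out, the 2 being Gm7859 and Gm10436 without dKO replicate 4. The difference of the interaction between tissues stayed at 0 genes under the alternatives run, apart from a range of 0 to 1 when single libraries were left out for the comparison with calvaria, where Rpl36-ps2 was called without MMP9-/- replicate 6. With the replicate block 0 genes were called and 469 had an unadjusted p under 0.05. Libraries of the same number came from different mice, their deviations correlated by -0.0205 on average (39 pairs, -0.357 to 0.264), and 3 of 27 libraries matched their own number best, so the numbers share only a name. For the 114 named genes each gene under each alternative was counted as 1 result. Of these results 4 passed the threshold (Gm10436 under 3 alternatives, Gm7859 under 1). Another 46 moved by more than the standard error of the gene, and 4602 did not. Of the list medians, counted in the same way, 43 results moved and 1679 did not. DESeq2 replaced counts in 21 genes and gave no adjusted p for 8. Depth limits genes under 10 CPM most.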

Other observations

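All 27 growth plate mice also gave another tissue, so the genes of smallest p were followed by mouse, here in CPM scaled over all 80 libraries. Gm7859 was high or near 0 in the tissues of a mouse together in the 4 mice described here. In the MMP9-/- mouse of growth plate replicate 5 it was 26.4 CPM in growth plate and 23.9 CPM in cortical bone, and in that of replicate 6 it was 19.2, 27.3 and 30.0 CPM in growth plate, calvaria and cortical bone. In the MMP2-/- mouse of growth plate replicate 6, by contrast, it was at 0 in all 3 tissues, while the dKO mouse of growth plate replicate 4 had 21.6, 23.8 and 37.2 CPM.

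Gm10436 and Rpl36-ps2 did not stay with the mouse. The dKO mouse of growth plate replicate 1 had 341 CPM of Gm10436 in growth plate and 0 CPM in calvaria, and the WT mouse of replicate 5 had 106 CPM in growth plate and 0 CPM in calvaria and in cortical bone. Rpl36-ps2 was 426 CPM in growth plate and 21.8 CPM in calvaria of that dKO mouse.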
